A study of Rattus norvegicus with 20 samples.

Results

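Gastrin (Gast) and cholecystokinin (Cck) and the receptors of both peptides (Cckar and Cckbr) were described across 20 mRNA libraries of INS-1 832/13 cells, an insulin-secreting rat insulinoma line into which human proinsulin was introduced. Their identifiers are ENSRNOG00000014740 (Gast), ENSRNOG00000019321 (Cck), ENSRNOG00000043124 (Cckar) and ENSRNOG00000017679 (Cckbr). These are 4 of the 23487 genes listed, taken by gene name, and each of them was among the 15802 genes tested. The set was selected on the measured level of Gast in si-P1 and si-P1+2 against si-Ctrl, to which the sister hormone and the receptors were added, so the comparisons of si-P1 and si-P1+2 with si-Ctrl are given for the 4 genes as a description with no test. The tests between si-P1+2 and si-P1, and those of si-P2 or untransfected cells with si-Ctrl, reuse some of these libraries. They are therefore not independent of the selection.

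The libraries fall into 5 groups of 4. The groups are cells transfected with siRNA pools against both Piezo1 and Piezo2 (si-P1+2), against Piezo1 alone (si-P1) or against Piezo2 alone (si-P2), cells given a siRNA without a target (si-Ctrl), and cells that were not transfected (untransfected). The siRNA was used at 25 nM (for si-P1+2 it is not stated whether each or in total), a second transfection followed after 48 h, and cells were harvested another 48 h later, from medium with 11.1 mM glucose. All groups are 1 cell line and each target was silenced with a single pool, so the loss of a channel and anything else its siRNA did cannot be told apart. The labels do not say whether replicates were separate cultures, and p-values therefore measure only how far these libraries spread, in part perhaps for technical reasons.

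Gastrin and cholecystokinin are sister hormones that end in the same amidated stretch of amino acids. In the adult, gastrin is made chiefly by G cells of the stomach and drives acid secretion, while cholecystokinin is made by I cells of the small intestine and by neurons and releases bile and pancreatic enzymes. Gastrin is also made in the fetal pancreas and in some islet tumours. Cckar encodes the receptor that prefers sulfated cholecystokinin, and Cckbr encodes the receptor that binds gastrin and cholecystokinin alike. Both receptors couple mainly to Gq, phospholipase C and calcium.

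The stretch before the annotated start of Gast is shown because Gast is the member whose level differed most between the groups. It is the 250 bases at chr10:85764966-85765215 on the plus strand of GRCr8, from RefSeq, with the base next to the start at position -1. Capitals mark the TATA box, TATATAA. They also mark the CACC element, which is CACCC and was found on each strand, the core shared by many homeodomain sites, TAAT, and the E-box, which is written CANNTG.
Gast promoter: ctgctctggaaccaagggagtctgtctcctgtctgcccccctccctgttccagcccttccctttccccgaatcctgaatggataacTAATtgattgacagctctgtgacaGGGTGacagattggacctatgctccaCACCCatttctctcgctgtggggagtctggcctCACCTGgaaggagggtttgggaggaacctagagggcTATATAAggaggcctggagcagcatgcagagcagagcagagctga
TATATAA began at position -45 and is held by 3.42% of the 33469 rat promoter windows of the same table. The windows are the 250 bases before each start, and both strands were searched. CACCC began at -114 and, on the other strand, at -140 (in 49.2% of windows), TAAT at -164 (57%) and CANNTG at -81 (65.5%). GGGCGG (the GC box bound by Sp1), the AP-1 site TGACTCA, the cAMP response element TGACGTCA and the TEAD core GGAATG had no match in this window. The window of Cckbr held GGGCGG at -88, -72 and -56, a motif of 30.5% of windows, and CANNTG at -181 and -23. None of these motifs overlapped another.

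The target of the siRNA was checked in every library. Piezo1 lay between 112 and 145 normalized counts in si-P1+2, between 105 and 132 in si-P1, between 300.0 and 386 in si-P2, between 294 and 333 in si-Ctrl and between 271 and 336 in untransfected cells. Piezo2 lay near the floor of the measurement, between 4.76 and 16.3 in si-P1+2, between 10.8 and 15.2 in si-P1, between 3.71 and 12.7 in si-P2, between 8.91 and 14.7 in si-Ctrl and between 6.72 and 16.3 in untransfected cells. The log2 fold change of Piezo2 against si-Ctrl was -0.25 in si-P1+2 (adjusted p = 0.796, limma) and -0.74 in si-P2 (adjusted p = 0.255, limma), so lower Piezo2 mRNA in the cells given its siRNA was not detectable at this depth. A normalized count is the number of reads of a gene divided by 1 size factor per library, and depth ranged from 16679934 to 56926609 reads. One library, si-Ctrl replicate 3, stood apart from the others (66.3 on the first principal component, against -16.7 to 13.9), and counts and values that moved without it are given both ways.

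Gast was higher in every library that received the Piezo1 siRNA than in any that did not. In si-P1+2 cells it had 1601, 1449, 2823 and 1762 normalized counts in replicates 1 to 4. In si-P1 cells it had 3781, 1376, 4468 and 2193. It had 428, 391, 625 and 439 in si-P2 cells, 267, 172, 476 and 178 in si-Ctrl cells and 180, 135, 237 and 125 in untransfected cells. The lowest library with the Piezo1 siRNA (1376) thus held more Gast than the highest without it (625), whereas si-P2 overlapped si-Ctrl through the si-Ctrl library that stood apart. Of all genes tested, 9.08% had no overlap between si-P1+2 and si-Ctrl and 14.1% between si-P1 and si-Ctrl. These shares are for 4 libraries against 4. The share for all libraries with the Piezo1 siRNA against all without it was not computed.

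**Figure D1:**
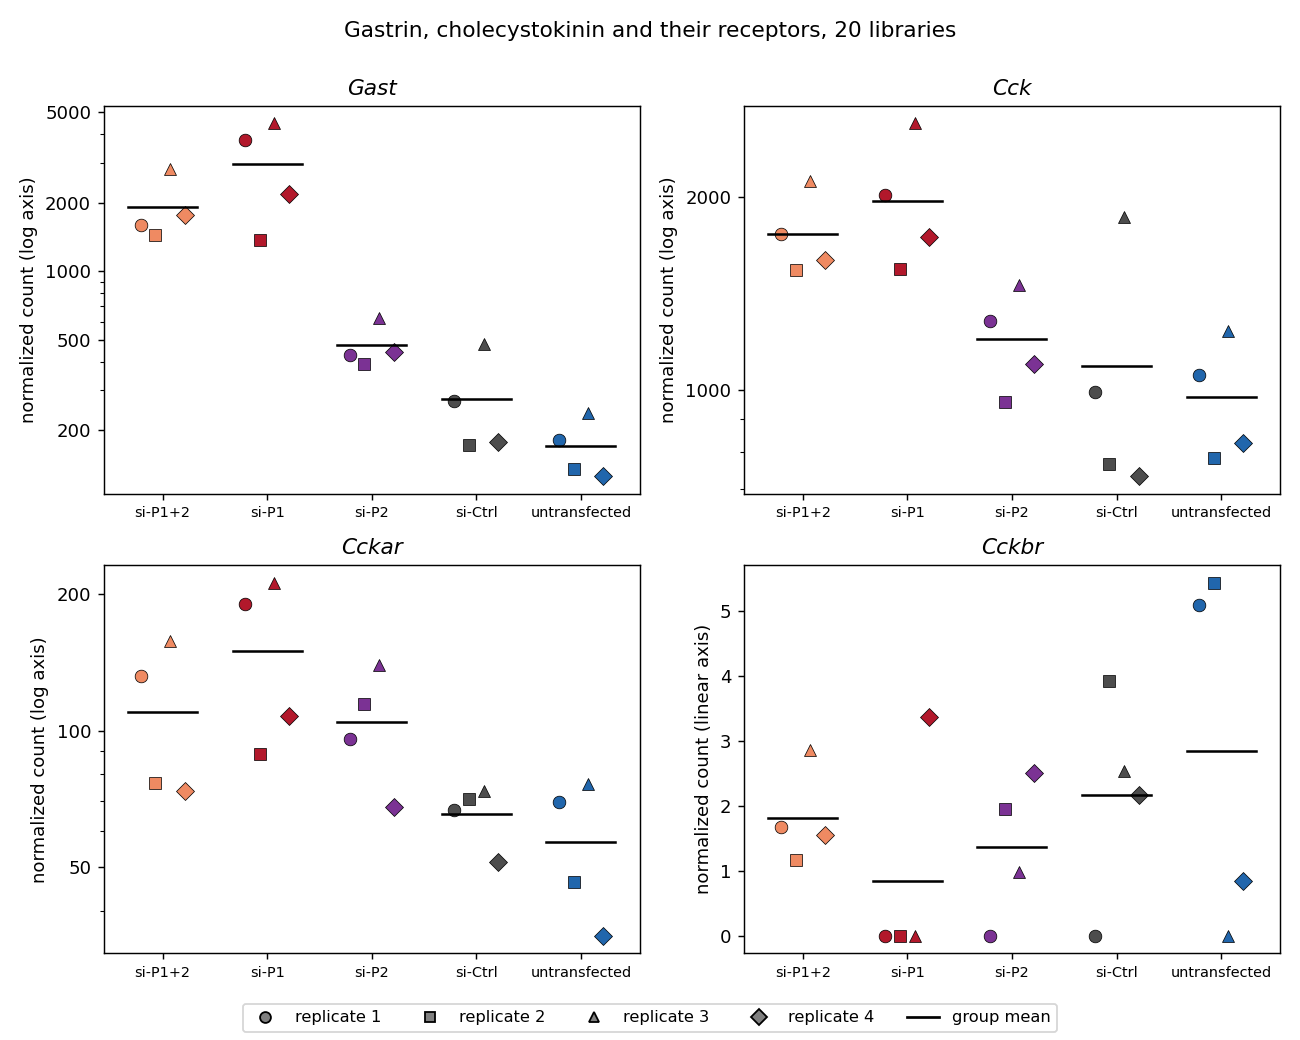
Normalized counts of the 4 genes (log axis for Gast, Cck and Cckar, linear axis for Cckbr) in each of 20 libraries, by group, with the marker shape giving the replicate number and the line the group mean. Gast lies between 1376 and 4468 in the 8 libraries with the Piezo1 siRNA and between 125 and 625 in the other 12, and the replicate 3 libraries are the highest of their group for Gast, Cck and Cckar.

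The mean of Gast was 1909 ± 623 normalized counts in si-P1+2 and 2955 ± 1420 in si-P1, against 273 ± 142 in si-Ctrl (SD, n = 4 each). On the log2(value + 1) scale the difference from si-Ctrl was 2.88 in si-P1+2 (standard error 0.35) and 3.42 in si-P1 (standard error 0.35), which are fold changes of 7.36 and 10.7. Gast ranked 6 among the 15802 genes by the size of the increase in each of these comparisons, which share the si-Ctrl libraries. Between libraries of the same replicate number, the ratio of si-P1+2 to si-Ctrl was 5.99, 8.44, 5.93 and 9.93 and the ratio of si-P1 to si-Ctrl was 14.2, 8.02, 9.39 and 12.4.

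The difference in Gast between si-P1+2 and si-P1 did not exceed the spread between libraries. The mean of si-P1+2 was the lower, the groups overlapped, and the log2 fold change was -0.54 (95% interval -1.27 to 0.20, adjusted p = 0.9999, limma). The libraries of equal number gave ratios of 0.423, 1.05, 0.632 and 0.804. Over the alternatives tried, with the replicate block among them, the adjusted p was 0.23 or higher. In this comparison 0.0443% of all genes passed, and 0 of the 4 members did. At an unadjusted p under 0.05, where 5.9% of all genes lie, the count of members was 0 as well, and it was 0 by edgeR and by DESeq2. By DESeq2 61 of the 15802 genes passed.

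With the Piezo2 siRNA alone Gast averaged 470.9 ± 105 normalized counts, against 273 ± 142 in si-Ctrl (SD, n = 4 each). The log2 fold change was 0.89 (95% interval 0.16 to 1.62), which did not pass the adjustment over all genes (adjusted p = 0.175, limma). Each of the 4 si-P2 libraries was above its si-Ctrl library of equal number, with ratios of 1.60, 2.28, 1.31 and 2.47. Set against untransfected cells in place of si-Ctrl the log2 fold change was 1.49 and passed (adjusted p = 0.0458, limma). Over the alternatives tried for si-P2 against si-Ctrl the adjusted p ranged from 0.00055 to 0.445. With the replicate number as a block Gast passed (adjusted p = 0.00675, limma), although the numbers were not taken to pair these groups. The si-P2 and untransfected libraries did not overlap, as for 12.3% of all genes. In si-P2 against si-Ctrl 2.08% of all genes passed and 0 of the 4 members did by limma, edgeR or DESeq2, with 1 member (Gast) at an unadjusted p under 0.05, where 20.4% of all genes lie. By DESeq2 820 of the 15802 genes passed.

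Transfection with the non-targeting siRNA gave no difference in Gast that passed. The mean was 273 ± 142 in si-Ctrl and 169.5 ± 51.1 in untransfected cells (SD, n = 4 each), and the log2 fold change was 0.60 (95% interval -0.13 to 1.33, adjusted p = 0.543, limma). Without si-Ctrl replicate 3 it was 0.29. Over the alternatives tried, with the replicate block among them, the adjusted p ranged from 0.108 to 0.939. Of all genes 0.0886% passed this comparison. None of the members passed (0 of 4 by limma, edgeR or DESeq2, and 0 at an unadjusted p under 0.05, where 9.93% of all genes lie). By DESeq2 103 of the 15802 genes passed.

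Cck, the other ligand, was higher in the same groups by a smaller fold. It had 1751, 1539, 2122 and 1596 normalized counts in si-P1+2 cells and 2016, 1545, 2607 and 1732 in si-P1 cells. It had 1283, 957.5, 1458 and 1096 in si-P2 cells, 992, 766, 1861 and 733 in si-Ctrl cells and 1054, 782, 1237 and 824 in untransfected cells. Every library with the Piezo1 siRNA was above every library without it apart from si-Ctrl replicate 3 (1861).

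Cck averaged 1752 ± 262 normalized counts in si-P1+2 and 1975 ± 464 in si-P1, against 1088 ± 528 in si-Ctrl (SD, n = 4 each). On the log2 scale it differed from si-Ctrl by 0.78 (si-P1+2) and 0.94 (si-P1), with a standard error of 0.24 each, and without si-Ctrl replicate 3 these were 1.08 and 1.23. In si-P2, where the mean was 1199 ± 219, the log2 fold change was 0.23 (95% interval -0.27 to 0.73, adjusted p = 0.596, limma). It was 0.08 in si-Ctrl against untransfected cells (adjusted p = 0.909, limma) and -0.22 there without si-Ctrl replicate 3. Between si-P1+2 and si-P1 it was -0.16 (95% interval -0.66 to 0.34, adjusted p = 0.9999, limma).

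Cckar, the receptor with a preference for cholecystokinin, had few counts in all groups. It had 132, 76.7, 157 and 73.7 normalized counts in si-P1+2 cells and 189, 88.9, 211 and 108 in si-P1 cells. It had 95.8, 114, 139.5 and 67.8 in si-P2 cells, 66.8, 70.6, 73.6 and 51.4 in si-Ctrl cells and 69.6, 46.5, 76.1 and 35.3 in untransfected cells. Neither si-P1+2 nor si-P1 overlapped si-Ctrl, although the lowest si-P1+2 library (73.7) was level with the highest si-Ctrl library (73.6). The same lack of overlap with si-Ctrl was found for 9.08% of all genes tested in si-P1+2 and for 14.1% in si-P1.

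Cckar differed from si-Ctrl by 0.67 (si-P1+2) and 1.09 (si-P1) on the log2 scale, with a standard error of 0.32 each. It averaged 110 ± 41.4 normalized counts in si-P1+2 and 149 ± 60.1 in si-P1, and 104 ± 30.3 in si-P2, against 65.6 ± 9.85 in si-Ctrl (SD, n = 4 each), and the ranges of si-P1+2 and si-P2 overlapped. In si-P2 against si-Ctrl the log2 fold change was 0.63 (95% interval -0.03 to 1.29, adjusted p = 0.265, limma). It was 0.25 in si-Ctrl against untransfected cells (adjusted p = 0.743, limma) and -0.42 in si-P1+2 against si-P1 (95% interval -1.08 to 0.24, adjusted p = 0.9999, limma).

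Cckbr, the receptor for gastrin, was at the limit of detection. It had 1.68, 1.16, 2.86 and 1.55 normalized counts in si-P1+2 cells. In si-P1 cells it was listed at 0 in 3 libraries and had 3.36 in replicate 4. It reached 2.51 at most in si-P2 cells, 3.92 in si-Ctrl cells and 5.43 in untransfected cells. The reads behind these values sum to 9 in si-P1+2, 5 in si-P1, 5 in si-P2, 9 in si-Ctrl and 13 in untransfected cells. A count of 0 allows up to 3 reads, which is 1.68 to 5.71 normalized counts depending on the library and covers counting error only, so a difference in Cckbr was not detectable at this depth. Its log2 fold change was -0.36 in si-P2 against si-Ctrl (95% interval -1.72 to 1.00, adjusted p = 0.776, limma).

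**Figure D2:**
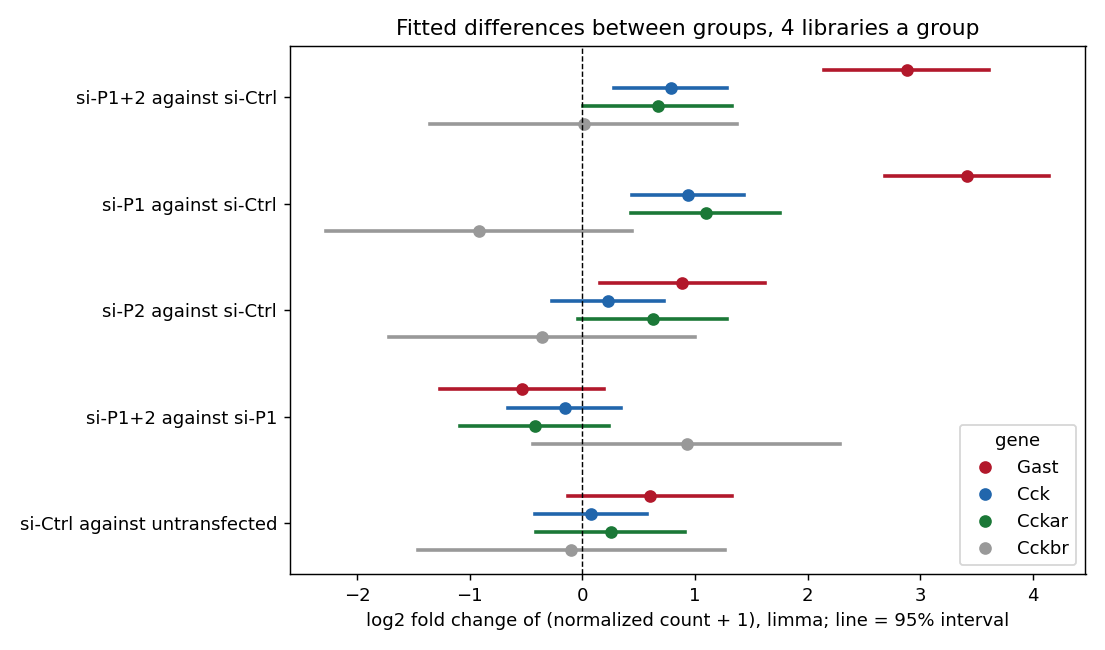
Log2 fold changes of the 4 genes (x axis, on normalized count + 1) in 5 comparisons (y axis), with the 95% interval from limma as a line. Gast lies at 2.88 and 3.42 for si-P1+2 and si-P1 against si-Ctrl, which are shown as a description, and the lines of Cckbr are the widest.

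Libraries of replicate 3 lay above, and those of replicate 4 below, the mean of their group in all groups for Gast, Cck and Cckar. Those of replicate 2 lay below it in all groups for Gast and Cck, but not for Cckar. Replicate 1 differed in direction between groups for each of these genes. Replicate 1 of Gast, as a log2 deviation from its group mean, was at 0.50 in si-P1 and at -0.20 in si-P1+2. Replicate 3 was the highest library of its group in 5 of 5 groups for each of Gast, Cck and Cckar. Over the 20 libraries the deviations from the group means correlated at 0.903 between Gast and Cck, at 0.737 between Gast and Cckar and at 0.622 between Cck and Cckar. Libraries share their replicate number and size factor in these values, so the correlations are given as a description. The spread between replicates of Gast was widest in si-P1, with 4468 and 1376 normalized counts at its ends.

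**Figure D3:**
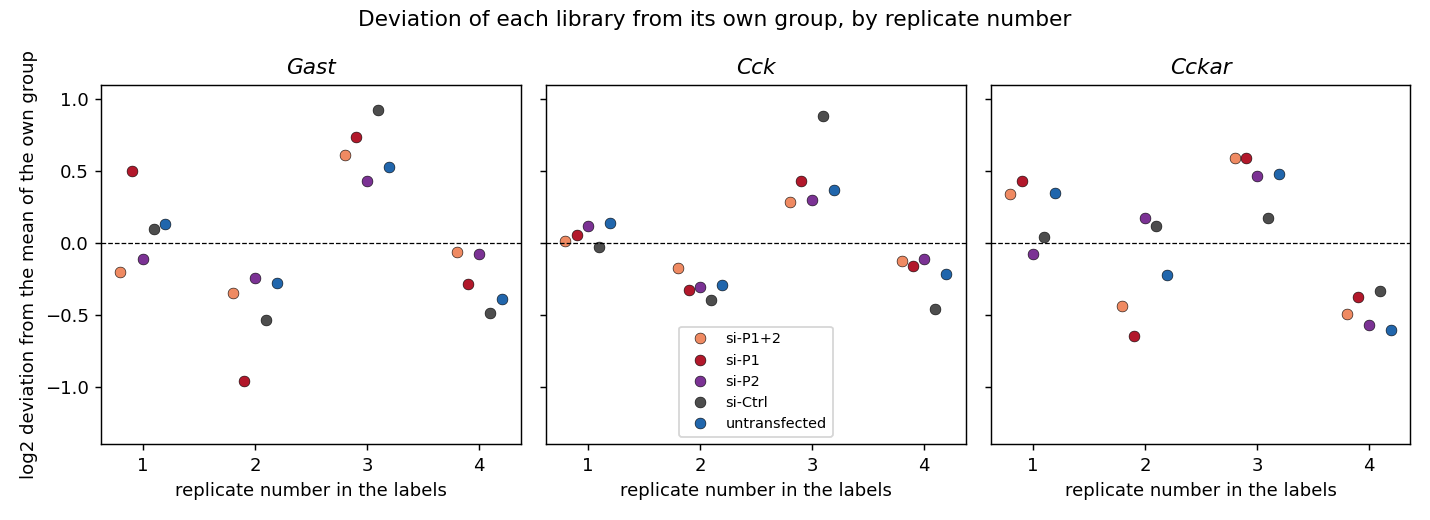
Deviation of log2(normalized count + 1) from the mean of the own group (y axis) by replicate number (x axis) for Gast, Cck and Cckar, with 1 point per library and colours for the 5 groups. The points of replicate 3 lie above 0 in all 5 groups for the 3 genes, and the si-P1 library of replicate 2 is the lowest for Gast.

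**Figure D4:**
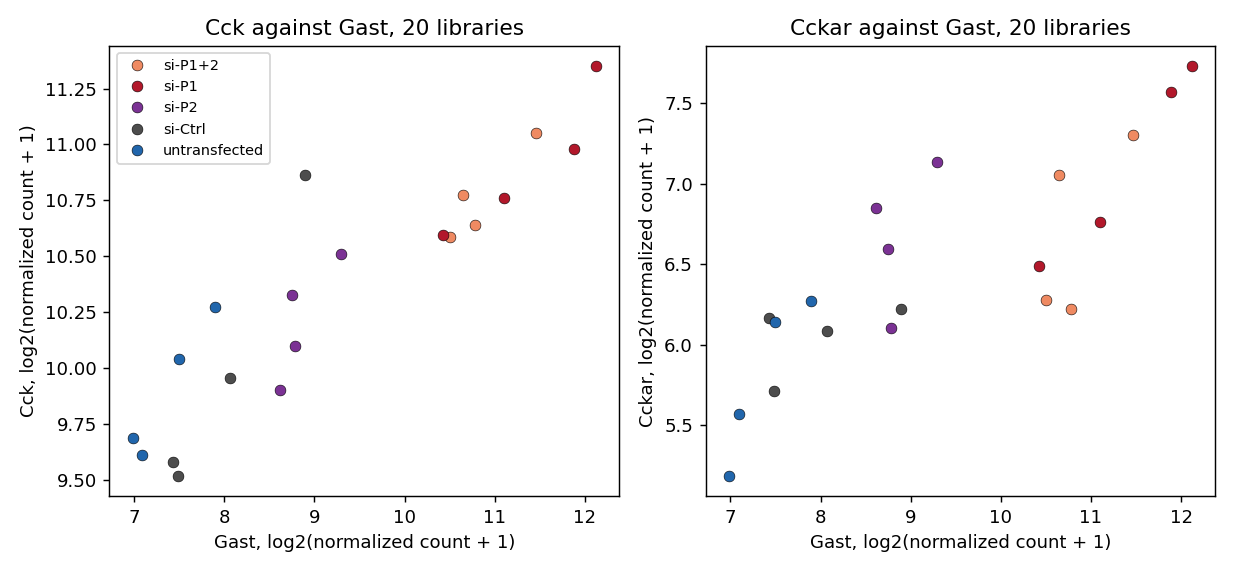
Cck (left) and Cckar (right) on the y axis against Gast on the x axis, each as log2(normalized count + 1), with 1 point per library and colours for the 5 groups. The 8 libraries with the Piezo1 siRNA lie to the right for Gast, and within groups Cck follows Gast, with a correlation of deviations of 0.903.

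The genes whose pattern was most like that of Gast over the 20 libraries were listed by Pearson correlation of log2 values among 11697 other genes with a mean of at least 50. They were Pla2g15 (a lysosomal phospholipase, 0.977), Fam151a (0.975), Ggcx (the vitamin K-dependent carboxylase, 0.975), Txndc11 (0.972), Cartpt (the precursor of the CART peptides, 0.971), Large2 (a glycosyltransferase, 0.971), C1galt1c1 (a chaperone of O-glycosylation, 0.964), Plekhb1 (0.964), Slc17a9 (the vesicular nucleotide transporter, 0.961) and Myadm (0.958). All libraries share the group pattern in this measure, and without si-Ctrl replicate 3 the first 10 genes kept 6 of these. Pla2g15 averaged 940 normalized counts in si-P1+2, 1155 in si-P1, 734.5 in si-P2, 641 in si-Ctrl and 536 in untransfected cells, which is the order of the group means of Gast. By this measure Cck ranked 74 (0.912) and Cckar 433 (0.812).

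The genes next to Gast on its chromosome differed little. In the RefSeq order the 5 genes before Gast are Krt16, Krt17, Krt42, LOC134480873 and Eif1, and the 5 after are Hap1, Jup, LOC120095292, LOC134480874 and P3h4. Only Eif1, Hap1, Jup and P3h4 were tested; of the keratins, Krt16 and Krt17 averaged at most 0.24 normalized counts in any group and Krt42 at most 2.08 (in si-Ctrl), and the 3 LOC genes were not listed. Jup (plakoglobin, a junction protein) rose by 0.25 on the log2 scale in si-P1+2 (standard error 0.06, adjusted p = 0.0158, limma) and by 0.20 in si-P1 (standard error 0.06, adjusted p = 0.028, limma). These calls were lost without si-Ctrl replicate 4 or si-P1+2 replicate 4 in si-P1+2 (adjusted p = 0.0615 and 0.0638, limma) and without any of si-Ctrl replicates 1, 2 and 4 and si-P1 replicates 3 and 4 in si-P1 (adjusted p 0.0667 to 0.0938, limma).

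Hap1, which encodes a partner of huntingtin and lies directly after Gast, averaged 3965 normalized counts in si-P1+2 and 4014 in si-P1, against 3127 in si-Ctrl. Its log2 fold change was 0.35 in si-P1+2 (adjusted p = 0.21, limma) and 0.36 in si-P1 (adjusted p = 0.115, limma). The si-P1 value passed with the replicate number as a block (adjusted p = 6.09e-05, limma) and without si-Ctrl replicate 3 (0.45, adjusted p = 0.0338, limma). The si-P1+2 value passed with the block (adjusted p = 0.00022, limma), although the numbers were not taken to pair si-P1+2 with si-Ctrl. Eif1, a translation initiation factor directly before Gast, averaged 28630 in si-P1+2 and 28110 in si-P1, against 30310 in si-Ctrl, and P3h4 averaged 672 and 652.5, against 708. Neither Eif1 nor P3h4 passed in either comparison.

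**Figure D5:**
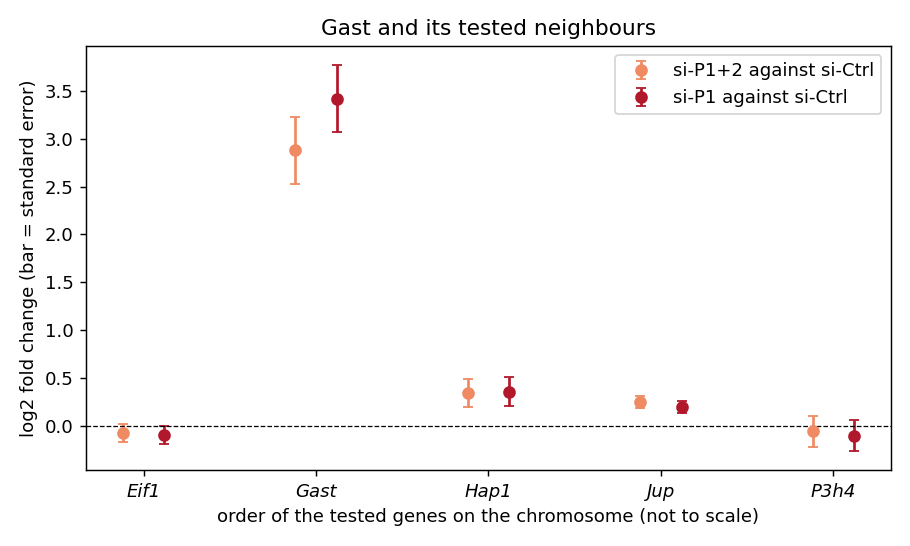
Log2 fold change against si-Ctrl (y axis, bar = standard error) of Gast and of its 4 tested neighbours in their order on the chromosome (x axis, not to scale) for si-P1+2 and si-P1. Gast lies at 2.88 and 3.42, and Hap1, the highest of the neighbours, lies at 0.35 and 0.36.

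Progastrin and procholecystokinin become active hormones by cutting at basic residues, trimming, amidation and sulfation, and a list of 15 genes for these steps was examined, of which 14 were tested and Pcsk1n was listed at 0. In si-P1 6 of the 14 rose and 1 fell, where 13.3% of all genes passed. Their median log2 fold change was 0.30, against 0.02 over all genes. Pam, the only enzyme that amidates peptide ends, rose by 0.89 (8590 ± 1512 normalized counts in si-P1 and 4644 ± 900 in si-Ctrl, SD, n = 4 each, adjusted p = 0.00168, limma). Qpct, which closes the amino-terminal glutamine of gastrin to a ring, rose by 0.86 (adjusted p = 2.40e-05, limma). Tpst1, one of the tyrosine sulfotransferases, rose by 0.40 (adjusted p = 0.00614, limma), while Tpst2 was at 0.01 (adjusted p = 0.974, limma). Furin, Qpctl and Ctsl also rose, by 0.30, 0.30 and 0.42. Scg5, the chaperone of the convertase Pcsk2, fell by 0.34 (adjusted p = 0.00616, limma). The convertases Pcsk1 and Pcsk2 and the carboxypeptidase Cpe were at 0.20, 0.10 and -0.04 and did not pass (adjusted p = 0.684, 0.644 and 0.787, limma).

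In si-P1+2 Qpct (0.56, adjusted p = 0.00384, limma) and Furin (0.19, adjusted p = 0.0288, limma) of this list rose, and none fell, where 4.76% of all genes passed. The median was 0.19, against 0.02 over all genes. When si-Ctrl replicate 3 was left out, 6 genes of the list passed, Pam and Tpst1 among them, and 13.6% of all genes did. Furin was no longer called without si-Ctrl replicate 4 or without si-P1+2 replicate 1, 2 or 4 (adjusted p 0.0644 to 0.0944, limma).

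Of 28 genes of Gq signalling, all tested, 3 rose and 3 fell in si-P1, where 13.3% of all genes passed. Plcb4 (a phospholipase C, 0.40), Prkcz (an atypical protein kinase C, 0.35) and Rgs4 (an inhibitor of Gq signals, 1.64, at 16.0 normalized counts in si-P1 and 4.16 in si-Ctrl) rose. Gna15 (an alpha subunit of the Gq family, -1.15), Rgs16 (-0.48) and Mapk3 (ERK1, -0.41) fell, and Rgs16 did not pass against untransfected cells (-0.09, adjusted p = 0.688, limma). Without si-Ctrl replicate 3 the count was 3 higher and 6 lower, where 24.2% of all genes passed. In si-P1+2, where 4.76% of all genes passed, Prkcz rose (0.34) and Gna15 fell (-1.06), and without si-Ctrl replicate 3 there were 1 and 5, where 13.6% of all genes passed. Prkcz in si-P1+2 did not pass against untransfected cells (0.15, adjusted p = 0.173, limma). The 28 genes had a median of -0.004 (si-P1) and 0.06 (si-P1+2).

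Of 31 factors named for control of the gastrin gene, among them Sp1, Klf4, Men1, Egr1, Gli1 and the somatostatin receptors, 24 were tested. In si-P1, where 13.3% of all genes passed, 0 rose and 2 fell, Hbegf (an EGF-family ligand, -0.69, adjusted p = 0.00162, limma) and Gata4 (-0.33, adjusted p = 0.00267, limma). With the replicate number as a block there were 2 higher and 3 lower in si-P1, where 21.5% of all genes passed, and without si-Ctrl replicate 3 there were 2 and 5, where 24.2% did. In si-P1+2, where 4.76% of all genes passed, Gata4 fell (-0.24, adjusted p = 0.0409, limma). This call was lost without any 1 of 5 libraries (si-Ctrl replicates 2 and 4 and si-P1+2 replicates 2, 3 and 4, adjusted p 0.0522 to 0.135, limma). It was also lost against untransfected cells (-0.15, adjusted p = 0.199, limma). Without si-Ctrl replicate 3 the list had 1 higher and 4 lower in si-P1+2, where 13.6% of all genes passed. The list had a median of -0.03 (si-P1) and 0.01 (si-P1+2). Sst, the hormone that restrains G cells, averaged at most 1.87 normalized counts in any group and was not tested.

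Among 22 other peptide hormones of gut and islet, 14 were tested, and in si-P1 5 rose and 0 fell, where 13.3% of all genes passed, with a median of 0.43. Cartpt rose most, with 2042 ± 979 normalized counts in si-P1 and 132.5 ± 110 in si-Ctrl (SD, n = 4 each, log2 fold change 4.24, adjusted p = 0.000209, limma). Sct (secretin) and Tac1 (the precursor of substance P) rose by 0.80 and 0.81, and Iapp (islet amyloid polypeptide) rose by 0.31. Nts (neurotensin) passed at 2.62 normalized counts in si-P1, and it was listed at 0 in all 4 si-Ctrl libraries. The call of Tac1 was lost without si-P1 replicate 4 (adjusted p = 0.0548, limma), that of Iapp without si-Ctrl replicate 2 or 4 or si-P1 replicate 1 or 3 (0.0538 to 0.0698) and that of Nts without any of si-Ctrl replicates 1, 2 and 4 and si-P1 replicates 2, 3 and 4 (0.0553 to 0.122). In si-P1+2, where 4.76% of all genes passed, Cartpt (3.57) and Sct (0.69) rose. The call of Sct was lost there without any 1 of 6 libraries (all but replicate 3 of si-Ctrl and replicate 1 of si-P1+2, adjusted p 0.0702 to 0.094, limma). Against untransfected cells Sct in si-P1+2 (0.42, adjusted p = 0.173, limma) and Nts in si-P1 (1.15, adjusted p = 0.164, limma) did not pass. Without si-Ctrl replicate 3 there were 7 higher in si-P1 (24.2% of all genes passed) and 3 in si-P1+2 (13.6%). Gcg (glucagon) did not pass in si-P1 (-0.18, adjusted p = 0.764, limma).

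Genes of gastric cells on which gastrin acts were partly absent. Of 16 such genes 8 were tested, and Cblif (intrinsic factor), Pgc (pepsinogen C) and Muc5ac were listed at 0 in all libraries. Of the 8, 2 rose and 1 fell in si-P1, where 13.3% of all genes passed, and 1 rose in si-P1+2, where 4.76% did. In si-P1 Kcnq1, a potassium channel subunit, rose by 0.90 (105 ± 4.89 normalized counts in si-P1 and 56.2 ± 5.96 in si-Ctrl, SD, n = 4 each, adjusted p = 0.000162, limma) and Slc18a1, a vesicular monoamine transporter, by 0.81, while Kcne2, a partner subunit of Kcnq1, fell by 0.91. In si-P1+2 Kcnq1 rose by 0.60, with the call lost without si-P1+2 replicate 2 (adjusted p = 0.0538, limma). The call of Slc18a1 was lost without si-Ctrl replicate 2 or 4 or si-P1 replicate 1 or 3 (adjusted p 0.113 to 0.137, limma). The list had a median of 0.35 (si-P1) and 0.29 (si-P1+2).

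Markers of the cell types were summed beside these results. For the counts below, 13.3% of all genes passed in si-P1 against si-Ctrl and 4.76% in si-P1+2 against si-Ctrl. Without si-Ctrl replicate 3 these shares were 24.2% and 13.6%. With the replicate number as a block 21.5% of all genes passed in si-P1. The beta-cell genes Ins1 (103100 normalized counts on average over the libraries) and Iapp (47900) and the transcription factor Pdx1 (3839) were present. Of 11 beta-cell markers tested, Iapp and Slc2a2 rose in si-P1 and none passed in si-P1+2, with summed levels of 175600 to 225200 in si-P1+2, 199100 to 261400 in si-P1 and 133500 to 238000 in si-Ctrl. Slc2a2 was no longer called without si-P1 replicate 3 or 4 (adjusted p = 0.0673 and 0.0509, limma) or against untransfected cells (0.33, adjusted p = 0.0528, limma). In si-P1 5 markers were higher without si-Ctrl replicate 3, while 4 were higher and 1 lower with the replicate number as a block. In si-P1+2 2 markers, Iapp and Pdx1, were higher without si-Ctrl replicate 3. Of 8 acinar and duct markers tested, Krt7 and Ctrb1 were among those that rose in si-P1, and none passed in si-P1+2 (2 without si-Ctrl replicate 3), with sums of 2988 to 3384 in si-P1+2, 3305 to 4026 in si-P1, 2109 to 2696 in si-P2, 1929 to 3593 in si-Ctrl and 1795 to 2514 in untransfected cells. Krt7 was the largest part of these sums, with 2203 on average over the libraries. Of the acinar genes, Cpa1, Pnlip, Prss1 and Ptf1a averaged at most 0.16 over the libraries, but Ctrb1 averaged 51.3. Ctrb1 rose in si-P1 by 1.415 on the log2 scale (adjusted p = 0.00571, limma). It averaged 112.5 ± 24.8 normalized counts in si-P1 and 41.8 ± 10.7 in si-Ctrl (SD, n = 4 each). Krt7 averaged 2857 in si-P1 and 2020 in si-Ctrl, and its call was lost without si-Ctrl replicate 2 or 4 or si-P1 replicate 3 (adjusted p 0.0663 to 0.0794, limma). Of 10 connective tissue, endothelial and blood cell markers tested, Pdgfra rose and Pdgfrb fell in si-P1 and Pdgfrb fell in si-P1+2, with sums of 224 to 238 in si-P1+2, 284 to 339 in si-P1, 143 to 207 in si-P2, 170.0 to 246 in si-Ctrl and 135 to 202 in untransfected cells. Lum was listed at 0, and Dcn and Cd79a averaged under 0.1. The part of these markers in the Gast and Cck levels was not tested, and in bulk libraries fewer cells of a type and less RNA per cell cannot be told apart.

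In the remaining comparisons 0 of the 112 tested genes of these 8 lists passed by limma in the main fit, where 2.08% of all genes passed in si-P2 against si-Ctrl. Without si-Ctrl replicate 3, Ins2 was called higher in si-P2 against si-Ctrl and no other list gene passed there. With 1 library left out at a time, 100 to 765 of the 15802 genes passed in that comparison. In si-Ctrl against untransfected cells no list gene passed without si-Ctrl replicate 3, where 33 of the 15802 genes did. The comparison of si-P1+2 with si-P1 was not refitted without that library. In si-P2 against si-Ctrl 15 of the 112 had an unadjusted p under 0.05 (20.4% of all genes did). By edgeR 1 of the 112 passed and by DESeq2 4 did, where 820 of the 15802 genes tested passed by DESeq2. In si-P1+2 against si-P1 12 had an unadjusted p under 0.05 (5.9% of all genes did). There 0 passed by edgeR and 0 by DESeq2, where 61 of the 15802 genes passed by DESeq2. With the replicate number as a block 1 (Hbegf) passed, as did 0.589% of all genes. In si-Ctrl against untransfected cells 13 had an unadjusted p under 0.05 (9.93% of all genes did). There 0 passed by edgeR and 1 by DESeq2, where 103 of the 15802 genes passed by DESeq2, and 7 passed with the block, as did 1.31% of all genes. The counts of all genes by edgeR are not given here. With only the compared groups in the fit, 22 of 35 calls examined of list genes and neighbours in si-P1+2 and si-P1 against si-Ctrl were lost.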

How the data were processed

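Poly(A) RNA of 20 samples (5 groups of 4) was sequenced with a stranded kit. The deposited signal values are normalized counts, which the authors made by mapping to Rnor_6.0, quantifying with Salmon (0.14.0) and dividing by 1 DESeq2 (1.25.10) size factor per library. Whole reads were recovered (100% of values within 0.001 of a whole number). All 20 columns matched a sample.

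In R (4.3.3), log2(value + 1) of the 15802 genes above 0 in 50% or more of the libraries was fitted with limma (3.58.1), with the 5 group means, 15 residual degrees of freedom, a variance trend and Benjamini-Hochberg adjustment at 0.05. Fold changes on this scale understate the change of low genes. edgeR (4.0.16) and DESeq2 (1.42.0) on recovered reads were alternatives, with another pseudocount, no filter, other scalings, only the 2 groups compared, untransfected libraries as controls, each replicate left out, and the replicate block. The script was tested on simulated data.

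The members and lists were chosen with earlier results of these data known. Named were the 4 members, the 10 genes most like Gast, 5 neighbours on each side, steps of peptide maturation, Piezo1 and Piezo2, and up to 4 genes per list and comparison that passed, to which others of a list that passed were added after their values were seen. Lists cover maturation, Gq signalling, regulators of the gastrin gene, peptide hormones, gastric cells, beta cells, acinar and duct cells, and connective, endothelial and blood cells. The values of 1 list gene are not reported here.

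The replicate numbers were taken to pair libraries where the deviations of all 4 same-numbered pairs correlated over 0.1 on 11698 genes with a mean of at least 50. These were si-P1 against si-Ctrl (0.111 to 0.559), si-P1+2 against si-P1 (0.210 to 0.526) and si-Ctrl against untransfected cells (0.154 to 0.437). Over all genes tested only si-P1+2 against si-P1 met this. The main fits did not use the pairing, and the replicate block was run as an alternative. Gene order and promoters came from RefSeq (GRCr8).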

Additional observations from a re-analysis of the deposited data

Results flagged for a closer look

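Cckbr in si-P1 had 1 library far from the other 3. Replicate 4 had 3.36 normalized counts and the others were listed at 0, where a count of 0 allows 2.55 to 5.71 normalized counts in those libraries. The threshold for such a gap is set to be passed by chance in about 1 in 20 groups of continuous values, a rate that was not tested here and need not hold for values set by single reads.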

How the results depend on the processing

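Gast kept its direction in all alternatives. With untransfected libraries as controls the log2 fold change of Gast was 3.48 (si-P1+2) and 4.02 (si-P1). In si-P2 it passed in 3 of 19 alternatives, which were the controls just named (1.49), the replicate block (0.89, adjusted p = 0.00675, limma) and, added after seeing the data, the block without si-Ctrl replicate 3 (1.01, adjusted p = 0.00055). There Cckar passed with the replicate block (0.63, adjusted p = 0.0453, limma) and Cck with the block without si-Ctrl replicate 3 (0.41, adjusted p = 7.54e-05), although the numbers were not taken to pair si-P2 with si-Ctrl. The block changed no other call of a member. Nor were the numbers taken to pair si-P1+2 with si-Ctrl, where Hap1 passed with the block (0.35, adjusted p = 0.00022, limma), as did 4 beta-cell markers (3 higher, 1 lower), 6 genes of maturation, 5 of Gq signalling, 3 regulators, 5 peptide hormones, 2 gastric genes and 2 acinar and duct markers. Of the 15802 genes tested, 1788 passed with the block in si-P1+2 against si-Ctrl. In si-P2 against si-Ctrl 11 of the 112 list genes passed with the block, as did 1367 of the 15802 genes tested.

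Cck in si-Ctrl against untransfected cells was -0.10 with the block without si-Ctrl replicate 3, and Cckbr there was 0.025 with quantile normalization. Leaving out 1 replicate gave -0.22 to 0.23 for Cck and -0.61 to 0.39 for Cckbr in that comparison, and -0.84 to 0.006 for Cckbr in si-P2. For Gast it gave 2.67 to 3.19 (si-P1+2), 3.17 to 3.73 (si-P1) and 0.71 to 1.20 (si-P2) against si-Ctrl, 0.29 to 0.78 for si-Ctrl against untransfected cells and -0.86 to -0.29 for si-P1+2 against si-P1.
Leaving out 1 replicate also gave 0.63 to 1.08 (si-P1+2) and 0.79 to 1.23 (si-P1) for Cck, and 0.47 to 0.83 and 0.90 to 1.31 for Cckar.

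The count of genes that passed moved by over 1.5 times as follows. In si-P1+2 against si-Ctrl (752) it was 69 with only the 2 groups compared, 1788 with the replicate block, 4248 with the block without si-Ctrl replicate 3, 1200 by DESeq2, 1298 against untransfected cells and 434 to 2148 without 1 replicate, with the highest without si-Ctrl replicate 3 and the lowest without si-P1+2 replicate 4. In si-P1 (2109) it was 593, 3400 and 5841 for the first 3 of these and 1426 to 3820 without 1 replicate (highest without si-Ctrl replicate 3). In si-P2 (328) it was 5, 1367, 1960, 820 (DESeq2), 166 (untransfected) and 100 (without si-P2 replicate 3) to 765 (without si-Ctrl replicate 1). For si-P1+2 against si-P1 (7) it was 2 with only the groups compared, 93 with the replicate block, 61 by DESeq2, 11 with equal totals, 18 with quantile normalization, 3 without a variance trend and 1 (without si-P1 replicate 3 or 4) to 7 without 1 replicate. In si-Ctrl against untransfected cells (14) it was 0, 207, 605 and 103 (DESeq2), and 4 (without untransfected replicate 1) to 33 (without si-Ctrl replicate 3). With equal totals 1374 genes rose and 741 fell in si-P1, against 1117 and 992. Of 35 calls of list genes and neighbours, 22 were lost with only the 2 groups compared. Depth limits Cckbr and Piezo2. The cause of these changes was not tested.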
